A study of Drosophila melanogaster with 21 samples.

Results

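The 10 genes described here encode the diptericins DptA and DptB, the attacins AttA, AttB, AttC and AttD, and the cecropins CecA1, CecA2, CecB and CecC. They are antimicrobial peptides of Drosophila melanogaster, taken by symbol out of 13989 genes with a transcript in the files. The choice was made with the levels of these genes in the same libraries already known. For that reason their levels and differences are given as a description, and none of them carries a p-value. All 10 passed the filter on low counts that left 8750 genes for the fit.

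The study examined how altered forms of LS2, a fly splicing factor related to the large subunit of U2AF, act on alternative splicing. PolyA-selected RNA was sequenced from S2 cells, a cultured fly line with blood-cell character, in 7 groups of 3 libraries. The WT group was induced to express unaltered LS2. The d38 group expressed LS2 with W62A, D63A and I64A, the RRM2 group LS2 with F285D and F287D, and the Beta5 group LS2 with K192E and R194E. In the GSlinker group the residues between H197 and P233 were exchanged for glycine and serine repeats, and the SF1 group expressed LS2 with E370K and D371K. The GFP group expressed GFP instead of LS2. Every group, GFP included, carried a copper-inducible transgene, was selected with hygromycin, and received copper sulfate at 500 µM during 53 h. Since each construct is represented by 1 selected line, line and construct cannot be told apart anywhere below.

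The IMD pathway is the fly's main response to Gram-negative bacteria. The receptor PGRP-LC recognises peptidoglycan and signals through imd, Fadd and Dredd and through a kinase cascade, and the NF-κB-type factor Rel then enters the nucleus and switches on genes for antimicrobial peptides. Diptericins are widely used as readouts of this pathway, attacins and cecropins also respond to it, and S2 cells are a common culture model for it.

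Estimated counts summed to between 17667236 and 38553848 per library. LS2 averaged 6280 ± 329 TPM in WT libraries and 2.30 ± 1.44 TPM in GFP libraries (SD, n = 3 each), and between 5576 TPM (SF1) and 7724 TPM (RRM2) in the mutants, as labelled. TPM is the authors' length-corrected abundance, scaled to 1 fixed total in each library. CPM are gene counts scaled for library size and composition. They carry no division by length and are used only to compare the same gene between libraries. Of 11 blood-cell markers found in the annotation, 10 averaged at least 1 TPM in every group and NimC1, a phagocytosis receptor of larval blood cells, lay under 1 TPM in every group. All 10 fat-body markers lay under 1 TPM in every group. The fat body is the main source of these peptides in the animal.

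The files show 2 kinds of library, a division absent from the labels. Effective length is an adjusted length estimated in each library, and for some transcripts it exceeded the transcript length. Over long transcripts, transcript length minus effective length had an SD of 68.4 to 88.6 nt in the 12 WT, d38, RRM2 and GFP libraries. That SD was 278 to 379 nt in the 9 Beta5, GSlinker and SF1 libraries. Any comparison of Beta5, GSlinker or SF1 with WT or GFP crosses these sets, and there the set cannot be told apart from the mutation. SF1 replicate 1 also stands apart. Across genes, the 3 pairs of SF1 libraries correlated at 0.989, 0.989 and 0.992, with both lower values involving replicate 1. It lay above both other SF1 libraries in 8 of the 10 peptide genes, and values without it are given where a call changes or a value moves by over 1.5 times.

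DptA and DptB lie next to each other on chromosome 2R, at 18865765 to 18866260 and 18867391 to 18867895 of the BDGP6 annotation, both on the plus strand. DptA showed the widest range of the 10 genes. It stood at 245, 251 and 274 CPM in WT libraries, 248, 236 and 231 CPM in d38 libraries and 114, 108 and 108 CPM in RRM2 libraries. It stood at 42.1, 40.0 and 38.1 CPM in Beta5, 133, 178 and 188 CPM in GSlinker and 243, 199 and 218 CPM in SF1, against 0.920, 0.904 and 0.728 CPM in GFP. All 18 libraries with an LS2 form lay far above the 3 GFP libraries, which held 19 to 30 counts each. WT, d38 and SF1 were highest and overlapped in neighbouring pairs, whereas GSlinker, RRM2, Beta5 and GFP followed in that order without overlap. The log2 difference from GFP was 8.22 ± 0.15 in WT (SE), 299-fold. The lowest among the LS2 forms was 5.54 ± 0.16, in Beta5.

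DptB stood at 444, 461 and 534 CPM in WT, 411, 379 and 358 CPM in d38, 396, 381 and 343 CPM in RRM2 and 191, 222 and 199 CPM in Beta5. It stood at 303, 315 and 381 CPM in GSlinker and 251, 148 and 165 CPM in SF1, against 85.2, 82.7 and 83.1 CPM in GFP. The GFP libraries were again below all others, but their level was far from 0. WT lay above the rest without overlap, d38, RRM2 and GSlinker overlapped, and Beta5 and SF1 overlapped below them. DptB was higher than in GFP by 2.52 ± 0.14 on the log2 scale in WT (5.73-fold) and by 1.17 ± 0.14 in SF1, or 0.91 without SF1 replicate 1. DptB overlaps the opposite-strand gene CG43109 by 48 nt, which held 5 to 113 counts per library. Whether counting used the strand is not given in the sources used here, so reads in the overlap cannot be told apart.

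AttA and AttB, at 14747362 to 14748215 and 14749223 to 14750165 on chromosome 2R, are near-identical copies. Their estimated counts were whole numbers, to within 0.01, in 1 and 0 of 21 libraries, whereas their sum was whole in 21 of 21, so reads were divided between the copies. The separate values are therefore uncertain. AttB stood at 260, 255 and 292 CPM in WT, 197, 186 and 183 CPM in d38, 224, 218 and 204 CPM in RRM2 and 71.8, 95.3 and 80.2 CPM in Beta5. It stood at 117, 125 and 144 CPM in GSlinker and 181, 104 and 105 CPM in SF1, against 47.4, 42.6 and 41.6 CPM in GFP. WT, RRM2 and d38 were separate from each other and above all other groups, SF1 and GSlinker overlapped, and Beta5 was the lowest LS2 form. AttA ran from 5.17 to 6.32 CPM in GFP and from 17.0 CPM, in a Beta5 library, to 62.4 CPM, in a WT library, elsewhere. Against GFP the log2 difference was 3.27 ± 0.13 for AttA and 2.62 ± 0.16 for AttB in WT, and 2.71 ± 0.15 for the 2 genes summed. Summed, it was 1.03 ± 0.15 in Beta5 and 1.69 ± 0.15 in SF1.

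The 2 annotated AttB transcripts did not keep a fixed proportion. AttB-RA took 38.3%, 1.08% and 19.2% of the AttB counts in the 3 SF1 libraries, a wide spread within 1 group. It took 39.0 to 43.1% in RRM2, 21.1 to 27.0% in d38 and 23.1 to 31.9% in WT, and 8.74 to 26.4% in GFP. In Beta5 and GSlinker it took between 0 and 15.5%. These shares are estimates of how shared reads divide, and no test was made of them.

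AttC, at 13393705 to 13394667 on chromosome 2R, was the lowest of the 10 genes in TPM in every group. It stood at 9.66, 10.7 and 10.6 CPM in WT, 12.1, 12.1 and 12.5 CPM in d38, 6.23, 7.10 and 5.76 CPM in RRM2 and 1.87, 2.51 and 1.59 CPM in Beta5. It stood at 3.11, 3.46 and 3.83 CPM in GSlinker and 5.44, 2.87 and 3.24 CPM in SF1, against 0.192, 0.181 and 0.192 CPM in GFP. Here d38, not WT, was highest, and its 3 libraries did not overlap those of WT. The GFP libraries held 5 to 6 counts each, so the log2 difference of 5.75 ± 0.27 in WT (53.9-fold) rests on few counts on the GFP side. It was 3.64 on the log2(TPM + 1) scale, which compresses low values.

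AttD differed from the other attacins in pattern. It lies apart from them, at 17625268 to 17626086 on chromosome 3R, and is annotated as an attacin, although its product is known to lack the signal peptide of the others. It stood at 61.7, 59.6 and 67.7 CPM in WT, 43.2, 41.8 and 39.5 CPM in d38, 41.4, 39.8 and 34.2 CPM in RRM2 and 21.3, 21.7 and 21.2 CPM in Beta5. It stood at 26.7, 31.5 and 33.7 CPM in GSlinker and 40.9, 32.2 and 33.4 CPM in SF1, against 30.0, 31.3 and 31.4 CPM in GFP. The GFP libraries thus lay inside the range. Beta5 was below them and WT, d38, RRM2 and SF1 above, each without overlap, while GSlinker overlapped them. The log2 difference from GFP was 1.03 ± 0.09 in WT and -0.53 ± 0.09 in Beta5.

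The 4 cecropins form a cluster of 6065 nt on chromosome 3R, from CecA1 at 30210874 to CecC ending at 30216938, with CecB on the minus strand and 2 annotated cecropin pseudogenes among them. CecA1 and CecA2 are near-identical copies whose counts were never whole singly and were whole when summed in 21 of 21 libraries. CecA1 took most of the sum. It stood at 160, 134 and 168 CPM in WT, 131, 122 and 117 CPM in d38, 128, 126 and 108 CPM in RRM2 and 65.3, 64.8 and 65.0 CPM in Beta5. It stood at 106, 96.6 and 109 CPM in GSlinker and 86.5, 112 and 81.6 CPM in SF1, against 81.0, 80.5 and 91.7 CPM in GFP. WT lay above every other group without overlap and Beta5 below every other group without overlap, GFP included. The log2 difference of CecA1 from GFP was 0.87 ± 0.10 in WT and -0.38 ± 0.10 in Beta5. The Beta5 difference did not pass the threshold by limma on log2(TPM + 1), where it was -0.17.

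CecA2 stood at 28.9, 24.4 and 29.1 CPM in WT, 23.4, 21.3 and 20.6 CPM in d38, 16.4, 16.6 and 13.3 CPM in RRM2 and 4.45, 5.81 and 4.72 CPM in Beta5. It stood at 5.81, 6.07 and 7.81 CPM in GSlinker and 17.5, 8.23 and 6.17 CPM in SF1, against 7.43, 5.33 and 6.97 CPM in GFP. WT, d38 and RRM2 were above GFP without overlap, and the 3 other mutants overlapped GFP in CPM. In SF1, replicate 1 was 2.43 times the mean of the other 2 libraries. Its log2 difference from GFP, 0.75 ± 0.25 with all libraries, was 0.15 without SF1 replicate 1 and 0.61 without GFP replicate 2, and passed the threshold in neither case. For CecA1 and CecA2 summed, the log2 difference from GFP was 0.998 ± 0.10 in WT, -0.38 ± 0.10 in Beta5 and 0.19 ± 0.10 in SF1.

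CecB was the only 1 of the 10 genes not called higher than in GFP in any LS2 form. It stood at 13.3, 12.4 and 13.2 CPM in WT, 14.0, 12.9 and 13.04 CPM in d38, 12.9, 13.2 and 11.6 CPM in RRM2 and 4.98, 5.93 and 4.72 CPM in Beta5. It stood at 10.01, 7.89 and 7.76 CPM in GSlinker and 8.46, 7.54 and 7.15 CPM in SF1, against 13.7, 13.7 and 15.0 CPM in GFP. The 9 libraries of the second set lay below the 12 of the first without overlap. The log2 difference from GFP was -0.12 ± 0.09 in WT, which did not pass the threshold, and -1.44 ± 0.10 in Beta5. CecC stood at 5.16 to 6.32 CPM in WT, 3.60 to 4.74 CPM in d38, 4.82 to 5.04 CPM in RRM2, 2.87 to 3.32 CPM in Beta5, 3.16 to 3.46 CPM in GSlinker and 2.31 to 3.69 CPM in SF1, against 2.76 to 3.59 CPM in GFP. It was higher than in GFP by 0.84 ± 0.14 on the log2 scale in WT.

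**Figure D1:**
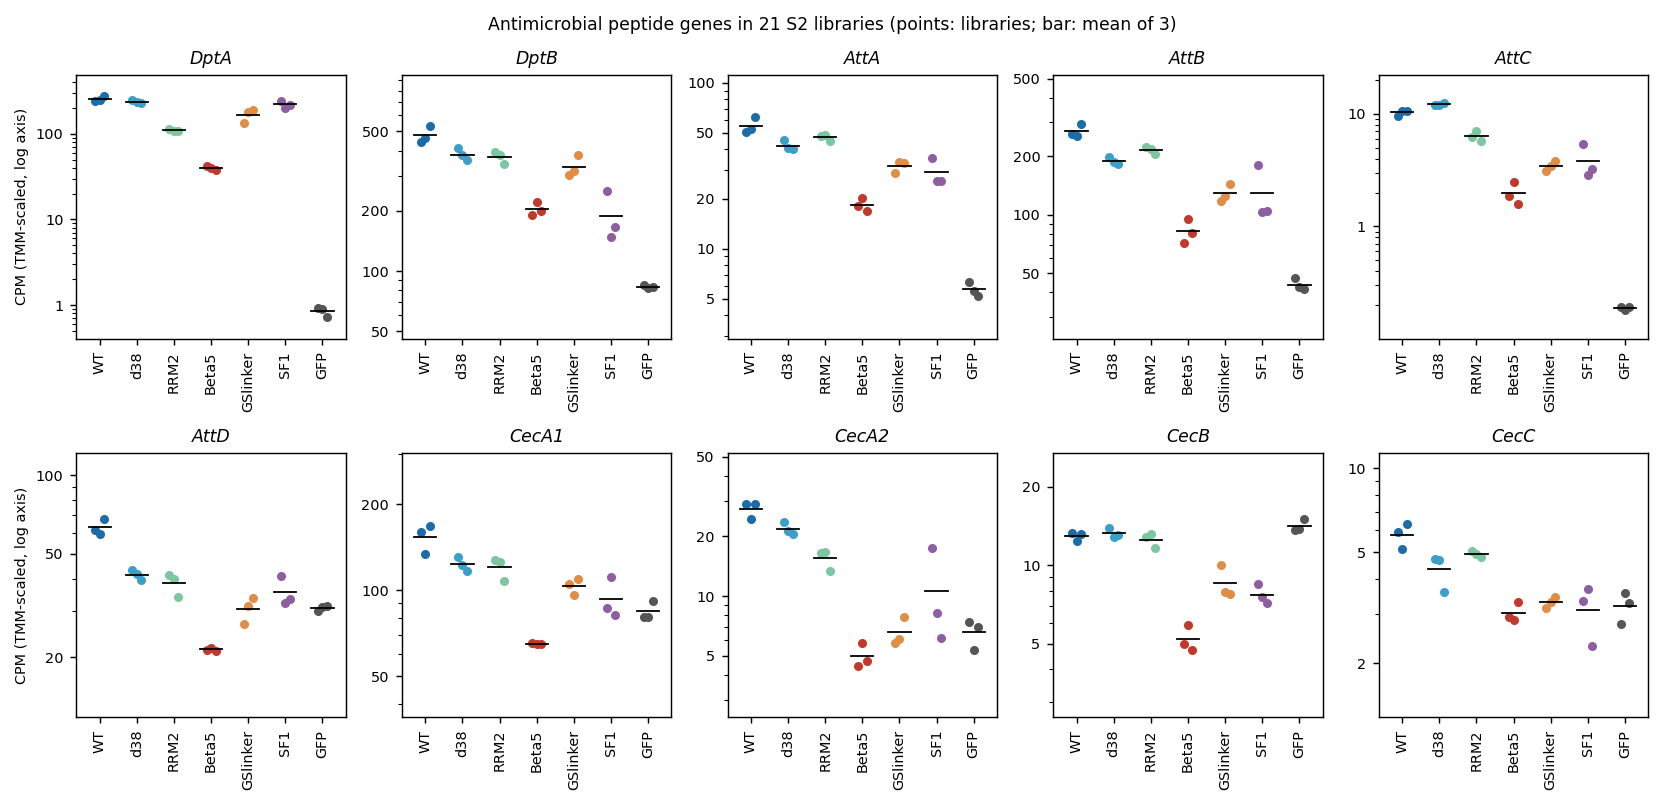
Level of each of the 10 peptide genes in every library, in CPM on a log axis, with 1 point per library and 1 panel per gene. GFP lies below all LS2 forms for DptA, DptB, AttA, AttB and AttC, between other groups by mean for AttD, CecA1, CecA2 and CecC, and highest by mean for CecB.

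In GFP libraries the peptide genes were already unequal. Per length, CecA1 was the most abundant at 529 TPM and DptB the second at 315 TPM, while DptA averaged 2.96 ± 0.383 TPM and AttC 0.277 TPM. In WT the order was DptB at 1765 ± 110 TPM, CecA1 at 947 TPM and DptA at 890 ± 27.6 TPM. Summed over the 10 genes, the level was 4491 ± 135 TPM in WT, 4203 ± 152 TPM in d38, 3389 ± 146 TPM in RRM2, 1842 ± 108 TPM in Beta5, 3473 ± 251 TPM in GSlinker and 2991 ± 499 TPM in SF1, against 1099 ± 40.7 TPM in GFP (SD, n = 3 each). DptA made up 19.8% of that sum in WT and 0.270% in GFP, and CecA1 21.1% in WT and 48.1% in GFP. The plot of summed levels shows these parts by gene. Both the total and its make-up thus differed between WT and GFP in these libraries. In such bulk libraries, fewer cells that express a gene and less RNA per cell cannot be told apart.

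**Figure D2:**
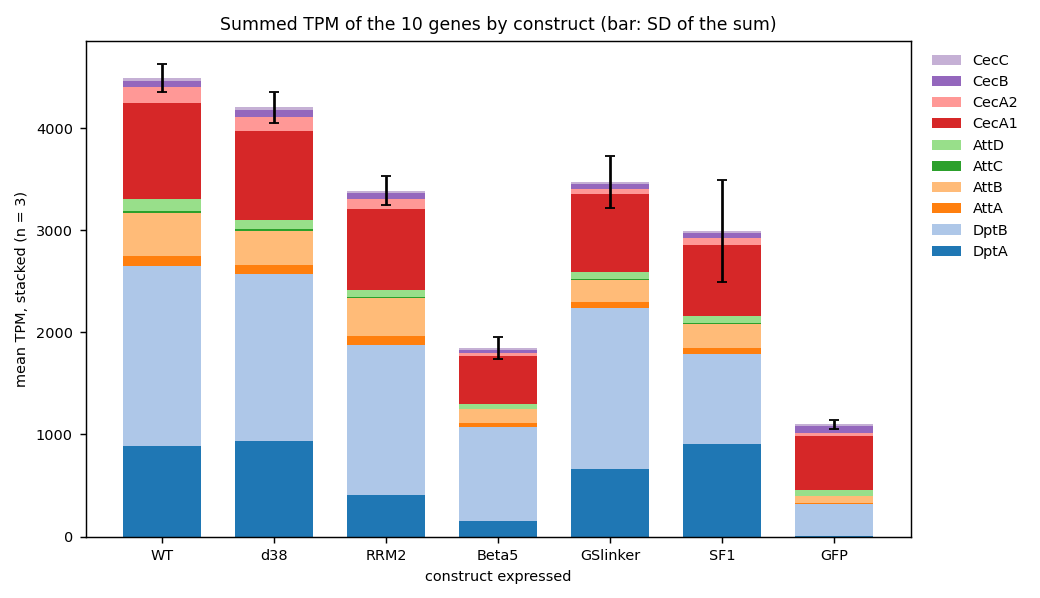
Mean TPM of the 10 genes stacked by gene for each group, with bars for the SD of the summed TPM over 3 libraries. The sum is 4491 TPM in WT and 1842 TPM in Beta5, against 1099 TPM in GFP, where CecA1 makes up 48.1% of it.

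Against GFP, 9 of the 10 genes were called higher and 0 lower in WT, in d38 and in RRM2, at an adjusted p under 0.05 in edgeR's quasi-likelihood test. Over all 8750 genes, 17.1% were called higher and 17.1% lower in WT, 15.1% and 15.2% in d38, and 12.3% and 12.7% in RRM2. CecB was the exception in all 3. The median log2 difference of the 10 genes was 2.30 in WT, 1.92 in d38 and 1.70 in RRM2, beside medians between -0.01 and 0 over all genes. The count in d38 was 8 without d38 replicate 1 or 2 or GFP replicate 1 or 3, where CecC lost its call. The count in RRM2 was 8 without RRM2 replicate 1 or 2 or GFP replicate 1, where AttD lost its call. Since these genes were chosen with that contrast known, nothing is read from the counts.

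In Beta5, 5 genes were called higher than in GFP (both diptericins, AttA, AttB and AttC) and 3 lower (AttD, CecA1 and CecB), beside 28.0% and 29.3% of all genes. In GSlinker, 6 were higher (the same 5 and CecA1) and 1 lower (CecB), beside 31.1% and 32.5%. In SF1, 6 were higher (the same 5 and CecA2) and 1 lower (CecB), beside 28.4% and 30.1%. The 5 genes higher in these 3 mutants were also the 5 for which GFP was the lowest of the 7 groups. CecA1 lost its call in GSlinker without GFP replicate 2 or GSlinker replicate 3, and AttD gained a call as higher in SF1 without SF1 replicate 2 or 3. AttD was also called higher in SF1 by DESeq2, with its size factors, and by limma on log2(TPM + 1) or log2(TPM + 0.1). By limma on either scale CecA1 was called higher in SF1 as well. CecA2 lost its SF1 call in a fit of the 2 groups alone. The 6 comparisons share the GFP libraries. The plot of differences from GFP sets them side by side.

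**Figure D3:**
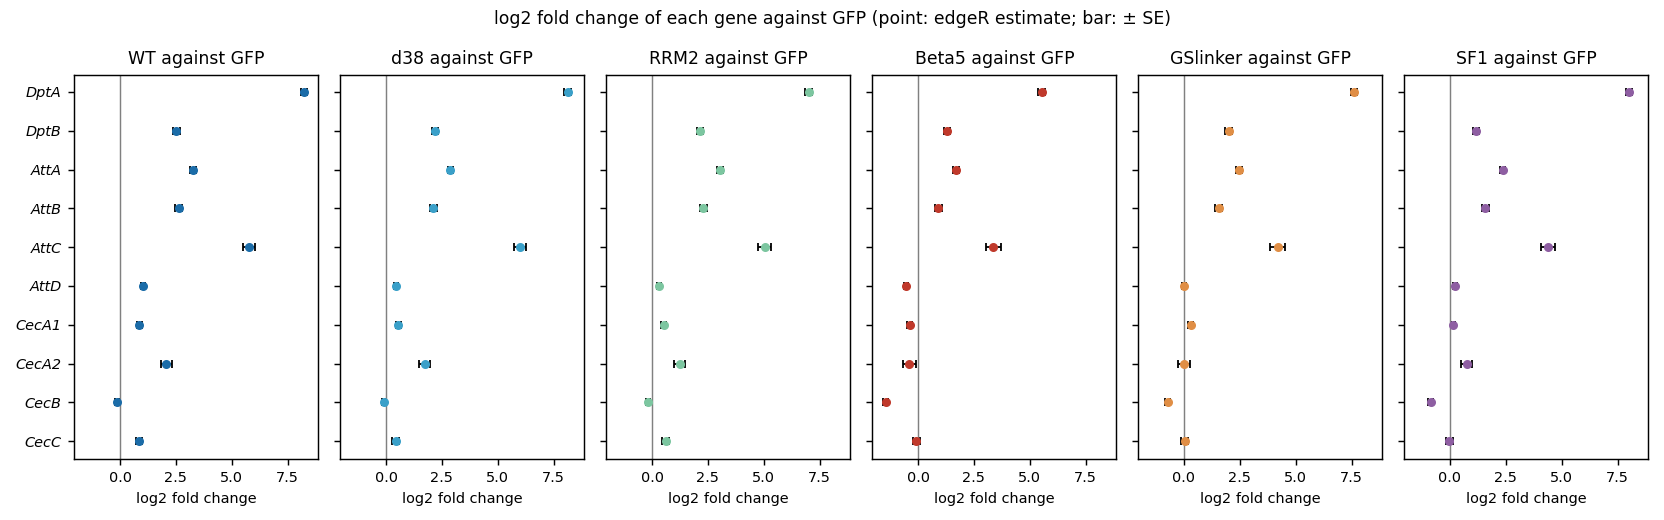
Log2 fold change against GFP of each gene in each LS2 form, with bars of 1 SE, 1 panel per form. DptA reaches 8.22 in WT and 5.54 in Beta5, whereas CecB is below 0 in all 6 forms, though its value in d38 is 0.10 on the log2(TPM + 1) scale.

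WT had the highest mean CPM of the 6 LS2 forms for 8 of the 10 genes, and d38 for AttC and CecB. Beta5 had the lowest for 9, and SF1 for DptB. Against WT, 0 genes were called higher in any mutant. In d38, 5 were called lower (AttA, AttB, AttD, CecA1 and CecC), beside 7.67% of all genes called higher and 8.65% lower, and the largest difference was -0.60 ± 0.09 for AttD. Its DptA was not called, at a log2 difference of -0.11 ± 0.09, and in TPM its mean was above that of WT, at 941 against 890 TPM. The d38 count was 1 without d38 replicate 2, d38 replicate 3 or WT replicate 3, and 3 without WT replicate 1. In a fit of the first library set alone, DptB and CecA2 were also called lower, which makes 7, and AttC was called higher. AttD was the only 1 of the 5 called in each of the 6 fits that left out a d38 or WT library.

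In RRM2, 5 were called lower than in WT (DptA, AttC, AttD, CecA1 and CecA2), beside 4.08% of all genes called higher and 4.03% lower. DptA differed most, by -1.22 ± 0.09 on the log2 scale, with no RRM2 library above 114 CPM and no WT library below 245 CPM. The calls of CecA1 and CecA2 were lost, leaving 3, without RRM2 replicate 2 or 3 or WT replicate 1 or 3, and that of CecA2 also without RRM2 replicate 1. DptB (-0.36 ± 0.13), AttA (-0.23 ± 0.11) and AttB (-0.32 ± 0.15) were not called. In a fit of the first library set alone, DptB and AttB were also called lower, which makes 7.

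All 10 genes were called lower than WT in Beta5, beside 24.9% of all genes called higher and 29.1% lower, with differences from -0.93 ± 0.15 for CecC to -2.68 ± 0.10 for DptA. All 10 were also called lower in GSlinker, beside 27.4% and 30.8%, with CecA2 at -2.06 ± 0.25 and DptB at -0.53 ± 0.14. The DptB call was lost by limma on log2(TPM + 1), where it was -0.17. In SF1, 9 were called lower, beside 23.6% and 25.6%, from -0.73 ± 0.10 for CecA1 to -1.38 ± 0.16 for AttC, which was -1.76 without SF1 replicate 1. DptA was the tenth, at -0.22 ± 0.09. It was called lower without SF1 replicate 1, at -0.30, and its TPM averaged 902 ± 124 in SF1 and 890 ± 27.6 in WT. CecA2 in SF1 stood at -1.32 ± 0.23 with all libraries and at -1.93 without SF1 replicate 1. The plot of differences from WT shows the 5 mutants.

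**Figure D4:**
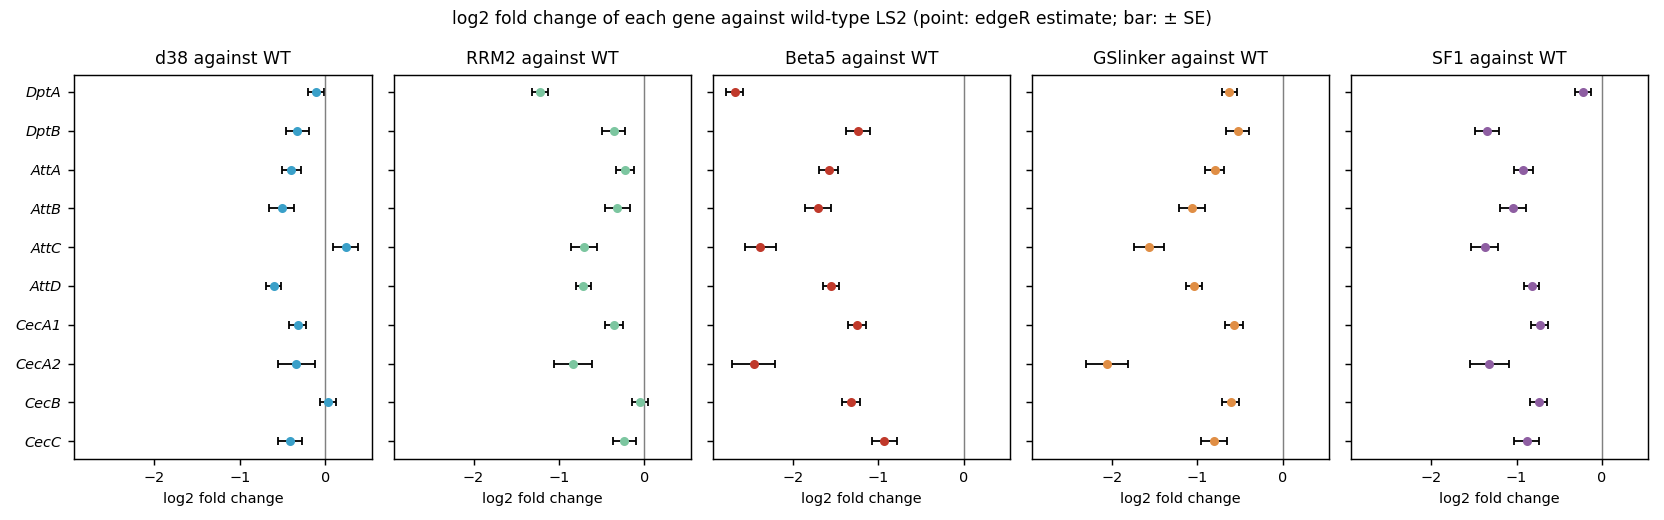
Log2 fold change against WT of each gene in each mutant, with bars of 1 SE, 1 panel per mutant. All values in Beta5, GSlinker and SF1 are below 0, though DptA in SF1 is at 0.01 on the log2(TPM + 1) scale, and DptA is at -2.68 in Beta5 and -0.11 in d38.

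The comparisons inside a library set do not cross the 2 sets. Their calls and SEs still come from the fit of all 21 libraries, whose estimate of spread is shared over both sets. In RRM2 against d38, 2 genes were called lower, DptA by -1.11 ± 0.09 and AttC by -0.94 ± 0.15 on the log2 scale, and 0 higher, beside 7.04% of all genes called higher and 6.58% lower. In a fit of the first library set alone, CecA2 (-0.50) was also called lower and AttB (0.19) higher. DptA stood at 108 to 114 CPM in RRM2, against 231 to 248 CPM in d38. DptB, the neighbour of DptA, differed by -0.04 ± 0.13. The 2 diptericins thus differed between these lines by unlike amounts.

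In GSlinker against Beta5, 8 genes were called higher and 0 lower, beside 8.71% and 8.23% of all genes. DptA differed by 2.06 ± 0.10, the other 7 by 0.52 (AttD) to 0.81 (AttC), and CecA2 and CecC were not called. The AttC call was lost without Beta5 replicate 3, and those of AttB and AttC in a fit of the second library set alone, which left 6. In SF1 against Beta5, 8 were called higher and 0 lower, beside 11.6% and 8.88%. DptA differed by 2.46 ± 0.10, while DptB did not pass at -0.11 ± 0.14 and CecC at 0.05 ± 0.16. In the second set alone, AttB and CecA2 lost their calls, which left 6. Without SF1 replicate 1, DptB was called lower at -0.38, and CecA2 stood at 0.53 in place of 1.14.

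In SF1 against GSlinker, DptA (0.40 ± 0.09) and CecA2 (0.74 ± 0.26) were called higher and DptB lower (-0.82 ± 0.14), beside 14.2% and 13.6% of all genes. DptA stood at 199 to 243 CPM in SF1 and 133 to 188 CPM in GSlinker, and DptB at 148 to 251 CPM in SF1 and 303 to 381 CPM in GSlinker, so the 2 neighbouring diptericins went opposite ways. The DptA and CecA2 calls were lost in a fit of the second library set or of the 2 groups alone, with DptA at 0.40 in each. The CecA2 call was also lost without SF1 replicate 1 (0.13), GSlinker replicate 1 (0.67) or GSlinker replicate 2 (0.68). Without SF1 replicate 1, AttA and AttB were also called lower, at -0.30 each, which makes 3 lower. Without SF1 replicate 2, CecA1 was called lower as well (-0.30), which makes 2, and AttD was called higher without SF1 replicate 2 (0.28) or GSlinker replicate 3 (0.29).

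Of 16 other antimicrobial peptide genes listed, 15 were found in the annotation and 8 could be tested. Against GFP, 4 were called higher and 0 lower in WT, 3 and 1 for d38, 2 and 1 for RRM2, 0 and 4 for Beta5, 2 and 3 for GSlinker and 3 and 4 for SF1. The median log2 difference of the 8 was 0.85 in WT and -0.44 in Beta5. Of all genes, 17.1% were called in each direction in WT, 15.1% higher and 15.2% lower in d38, and 12.3% and 12.7% in RRM2. In Beta5 these shares were 28.0% and 29.3%, in GSlinker 31.1% and 32.5%, and in SF1 28.4% and 30.1%. Dro, the gene for drosocin, ends 647 nt before AttA starts. It stood at 142, 134 and 165 CPM in WT and 36.2, 41.2 and 33.5 CPM in Beta5, against 34.4, 32.1 and 37.5 CPM in GFP. The difference from GFP was 2.08 ± 0.13 in WT (edgeR adjusted p = 1.18e-10) and 0.10 ± 0.13 in Beta5 (edgeR adjusted p = 0.564), so Beta5 and GFP overlapped. Mtk, the gene for metchnikowin, stood at 11.5, 9.27 and 11.7 CPM in WT and 2.29, 1.11 and 1.73 CPM in SF1, against 3.75, 3.19 and 3.83 CPM in GFP. It was higher in WT by 1.60 ± 0.16 (edgeR adjusted p = 1.45e-07) and lower in SF1 by -1.01 ± 0.20 (edgeR adjusted p = 0.000232). Drs, the gene for the antifungal drosomycin, a common readout of the Toll pathway, was higher in WT by 1.37 ± 0.15 (edgeR adjusted p = 3.15e-07). Of 14 Bomanin and daisho genes, which respond mainly to Toll, only 3 could be tested, and BomBc2 alone was called in WT, lower by -0.63 ± 0.22 (edgeR adjusted p = 0.0316), a call lost without GFP replicate 1 or 2 or WT replicate 1 or 2.

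Of 16 listed positive components of IMD signalling, all were tested, and 4 were called higher and 1 lower than GFP in WT, 4 and 2 for d38, 1 and 2 for RRM2, 3 and 5 for Beta5, 6 and 5 for GSlinker and 5 and 5 for SF1. Over all genes, 17.1% were called higher and 17.1% lower in WT, 15.1% and 15.2% in d38, and 12.3% and 12.7% in RRM2. They were 28.0% and 29.3% in Beta5, 31.1% and 32.5% in GSlinker, and 28.4% and 30.1% in SF1. The list's counts in GSlinker and SF1 are thus near the shares of all genes. The list's median log2 difference was 0.09 in WT and -0.03 in GSlinker. Rel differed by -0.01 ± 0.05 in WT (edgeR adjusted p = 0.901) and was lower in Beta5 by -0.28 ± 0.05 (edgeR adjusted p = 3.54e-05). Its mean was as low in SF1, at 316 CPM in Beta5 and 316 CPM in SF1, against 385 CPM in GFP. In d38 it was 365 CPM and in GSlinker 374 CPM. In RRM2 Rel was lower by -0.15 (edgeR adjusted p = 0.0241), a call lost without any 1 GFP library or RRM2 replicate 1 or 3. PGRP-LC was lower than in GFP in all 6 forms, by -0.13 (RRM2) to -0.40 (SF1), though in TPM its difference in GSlinker was 0.07. Its call in WT was lost without GFP replicate 1, and that in RRM2 without any GFP library or RRM2 replicate 1 or 3. Of 11 negative regulators, 9 were tested, and 4 were called higher and 1 lower in WT, 5 and 1 for d38, 4 and 0 for RRM2, 5 and 2 for Beta5, 3 and 1 for GSlinker and 3 and 1 for SF1, with a median log2 difference of 0.28 in WT and 0.17 in GSlinker. These counts stand beside the same shares of all genes, and the higher calls in GSlinker and SF1 are near those shares. PGRP-LB, an amidase that degrades peptidoglycan and is itself a target of the pathway, was higher by 0.49 ± 0.08 in WT (edgeR adjusted p = 6.02e-05) and 1.23 ± 0.08 in GSlinker (edgeR adjusted p = 1.57e-10). It stood at -0.11 ± 0.08 in Beta5 (edgeR adjusted p = 0.263). The inhibitor pirk, another known target, was higher by 0.47 ± 0.08 in WT (edgeR adjusted p = 9.44e-05) and lower in Beta5 by -0.29 ± 0.08 (edgeR adjusted p = 0.00423).

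**Figure D5:**
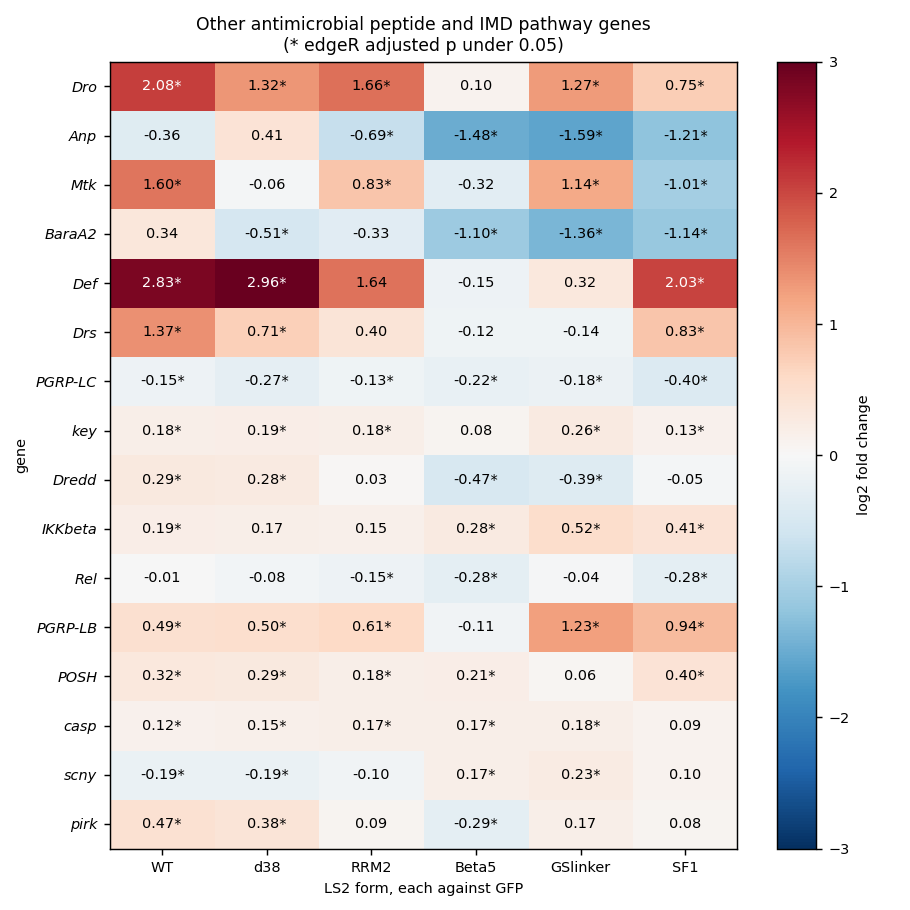
Log2 fold change against GFP in the 6 LS2 forms, as a colour scale, with a star at an edgeR adjusted p under 0.05. The genes shown are those with the most calls against GFP in the other peptide and IMD signalling lists. Def, Drs, Rel and pirk are added, and the remaining tested genes of these lists are not shown. Dro is 2.08 in WT and 0.10 in Beta5, and most of the signalling genes shown lie close to 0.

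The summed TPM of the blood-cell markers was lower in every LS2 form than in GFP, and most of that sum came from 4 genes of the extracellular matrix. Among all genes tested against GFP, 17.1% were called higher and 17.1% lower in WT, 15.1% and 15.2% in d38, and 12.3% and 12.7% in RRM2. The shares were 28.0% and 29.3% in Beta5, 31.1% and 32.5% in GSlinker, and 28.4% and 30.1% in SF1. Of 12 blood-cell markers listed, 10 were tested, and 0 were called higher and 8 lower than GFP in WT, 0 and 8 for d38, 0 and 6 for RRM2, 1 and 5 for Beta5, 2 and 5 for GSlinker and 0 and 7 for SF1. Their summed level ran from 773 to 912 TPM in WT, 919 to 983 TPM in d38, 1164 to 1304 TPM in RRM2, 990 to 1045 TPM in Beta5, 1284 to 1496 TPM in GSlinker and 1135 to 1240 TPM in SF1, against 1667 to 1750 TPM in GFP. Col4a1 and vkg, which encode collagen IV, and Pxn and Ppn, which encode extracellular matrix proteins, were lower than in GFP in all 6 forms, Col4a1 by -0.49 (GSlinker) to -1.66 (d38). These 4 genes averaged 507 TPM in sum in WT and 897 TPM in GSlinker, against 1324 TPM in GFP. The other 7 markers followed them only in part. In sum they lay below GFP, at 390 to 410 TPM, in WT (305 to 366 TPM) and d38 (355 to 386 TPM). They overlapped GFP in RRM2 (362 to 422 TPM) and SF1 (381 to 450 TPM). They lay above GFP in Beta5 (417 to 451 TPM) and GSlinker (456 to 516 TPM). On TPM, however, the median log2 difference of all genes from GFP was itself above 0, at 0.08 in Beta5 and 0.12 in GSlinker. Of the 5 markers called lower in Beta5 and the 5 in GSlinker, 4 were the matrix genes. In each of these forms 1 of the other 7 markers was thus called lower too. The genes srp and eater, singled out after their values were seen, hold all the higher calls of the list. Of these, srp, a GATA factor of blood cells, was higher than in GFP in Beta5 by 0.32 ± 0.08 (edgeR adjusted p = 0.00323) and in GSlinker by 0.48 ± 0.08 (edgeR adjusted p = 6.11e-05). The phagocytosis receptor eater was higher in GSlinker by 0.35 ± 0.12 (edgeR adjusted p = 0.0151), a call lost without GSlinker replicate 2, and lower in d38 by -0.61 ± 0.12 (edgeR adjusted p = 0.000555). The part of these markers in the peptide differences was not tested. The fat-body list summed to between 0.219 and 0.798 TPM over all libraries.

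Across the 21 libraries, the genes most like DptB in log2 CPM, among 6749 genes that leave out the 10 peptide genes themselves, were CG3984 (r = 0.956), edin (r = 0.948) and CG3829 (r = 0.911). Among the same 6749 genes, those most like AttB were edin (r = 0.945), Dro (r = 0.938) and CG3829 (r = 0.927), and those most like CecA1 were Dro (r = 0.889), Rab4 (r = 0.884) and Rnf146 (r = 0.881). The gene edin encodes a secreted product known to be induced by infection. Its mean level was 582 TPM in WT and 198 TPM in Beta5, against 126 TPM in GFP. These are descriptions over libraries that share 7 groups and 2 library sets, so the points are not independent. For AttB and CecA1 a peptide gene was more alike than these, AttA for AttB (r = 0.972) and AttD for CecA1 (r = 0.893). For DptB the most alike peptide gene was AttA (r = 0.953), which was less alike than CG3984. DptA, DptB, AttA, AttB and AttC correlated with each other at 0.85 or more, and CecB with DptA at -0.17.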

How the data were processed

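PolyA-selected RNA was measured in 21 libraries. Per the file headers, the authors deposited TPM and estimated counts for each transcript, beside its length and effective length. The authors' estimated counts need not be whole, are not scaled between libraries, and were rounded here after summing by gene. The authors' TPM are scaled to a fixed total per library. Per the submitters' processing notes, kallisto and STAR were used with dm6 and BDGP6. Versions are not given in the sources used here. Genes came from the BDGP6 annotation of Ensembl.

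The test was edgeR 4.0.16 (R 4.3.3, quasi-likelihood, TMM factors of 0.958 to 1.05, filterByExpr with a minimum count of 10, 21 libraries in 1 fit, 14 residual degrees of freedom), with Benjamini-Hochberg adjustment over 8750 genes and a threshold of 0.05. An SE is the log2 change divided by the square root of F. Simulated counts with 200 genes changed 2-fold gave back 93.5% of them among 8597 genes, and 5.08% of 197 calls were false. The simulated libraries held no difference between library sets and no deviating replicate, so these rates need not hold for the real libraries. Replicates are not said to be separate cultures, so p-values measure the spread between these libraries, which may be technical.

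The members and all lists were chosen with earlier results of these data known. Other genes are named by calls against GFP (up to 4 per list), with Rel, PGRP-LC, PGRP-LB and pirk always given, and by likeness to the most counted diptericin, attacin and cecropin among genes with a mean of at least 5 CPM. Drs, Def, srp and eater were singled out after their values were seen. Alternatives were DESeq2, its size factors, limma 3.58.1 on log2(TPM + 1) and log2(TPM + 0.1), no count filter, a replicate block, summed near-identical copies, fits of 2 groups or the first library set, and leaving out each library. A fit of the second set was added after seeing the data. Sequences were not used here.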

Additional observations from a re-analysis of the deposited data

How the results depend on the processing

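No called difference of a member changed sign under any alternative run. In d38 against WT, 0 genes were called higher and 5 lower, and the counts were 1 higher and 7 lower in fits of the first library set or of the 2 groups alone, and 1 lower by limma with either pseudocount. In RRM2 against WT, 3 were called lower by limma with either pseudocount and 7 in the first set or with 2 groups, in place of 5. In RRM2 against d38, 1 was called higher in the first set and 2 with 2 groups, in place of 0. CecA2 was called lower in both of these fits, beside DptA and AttC. In SF1 against Beta5, 5 were higher with 2 groups and 6 in the second set, in place of 8, and in GSlinker against Beta5 6 in the second set, in place of 8. In SF1 against GSlinker, 2 were higher, and the count was 0 in the second set or with 2 groups, and 1 by limma with either pseudocount, DESeq2 or summed copies.

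Leaving out 1 library gave 1 to 5 lower in d38 against WT, 3 to 5 lower in RRM2 against WT, 0 to 1 lower in SF1 against Beta5, and 1 to 3 higher and 1 to 3 lower in SF1 against GSlinker. With replicate number as a block, 2 of 109 calls were lost, CecC in d38 against WT and CecA2 in SF1 against GSlinker, which left 1 higher in the second of these. Samples of the same number did not deviate together: mean correlations ran from -0.189 to 0.0886, so the numbers were not taken as pairs.

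The median log2 difference of all genes reached 0.18 on TPM (SF1 against WT), whereas TMM medians lay within 0.04 of 0. On TPM, 7 uncalled differences of members had the opposite sign. AttC and DptA had only 5 to 6 and 19 to 30 counts in GFP libraries.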

Other observations

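Other genes of the lists gave these values against GFP. Def, the gene for defensin, was higher by 2.83 ± 0.57 in WT (edgeR adjusted p = 0.000629), 2.96 ± 0.57 in d38 (edgeR adjusted p = 0.000476) and 2.03 ± 0.64 in SF1 (edgeR adjusted p = 0.00965), with 1 to 6 counts in each GFP library. The SF1 value rests on replicate 1, which held 29 counts against 5 and 6 in the other SF1 libraries, and was 1.13 without it (edgeR adjusted p = 0.189). Without GFP replicate 2 the 3 values were 3.63, 3.77 and 2.85. Anp, the gene for andropin, a cecropin-like peptide of the male reproductive tract that lies beside the cecropin cluster, was lower in 4 mutants. It differed by -1.48 ± 0.22 in Beta5 (edgeR adjusted p = 1.18e-05), -1.59 ± 0.23 in GSlinker (edgeR adjusted p = 6.95e-06) and -1.21 ± 0.20 in SF1 (edgeR adjusted p = 4.73e-05), and by -0.69 ± 0.19 in RRM2 (edgeR adjusted p = 0.0123), a call lost without RRM2 replicate 3. It stood at 0.41 ± 0.18 in d38 (edgeR adjusted p = 0.0909), where its libraries at 3.46 to 4.15 CPM lay above those of GFP at 2.76 to 2.91 CPM, and at -0.36 ± 0.19 in WT (edgeR adjusted p = 0.15). BaraA2, which encodes a baramicin, was lower in Beta5, GSlinker and SF1, by -1.10 to -1.36, and in d38 by -0.51 ± 0.19 (edgeR adjusted p = 0.0418, lost without any of 5 libraries, GFP replicates 1 and 3 and all of d38), and stood at 0.34 ± 0.18 in WT (edgeR adjusted p = 0.151).

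In the IMD pathway, key, the regulatory subunit of the IKK complex, was higher by 0.26 ± 0.05 in GSlinker (edgeR adjusted p = 0.000315). IKKbeta, its kinase subunit, was higher by 0.52 ± 0.07 in GSlinker (edgeR adjusted p = 2.89e-06). Dredd, the caspase that cleaves Rel, was higher by 0.29 ± 0.08 in WT (edgeR adjusted p = 0.00761), a call lost without WT replicate 3, and lower by -0.47 ± 0.08 in Beta5 (edgeR adjusted p = 7.97e-05). Of the negative regulators, POSH was higher by 0.32 ± 0.06 in WT (edgeR adjusted p = 0.000496). The gene casp was higher by 0.18 ± 0.04 in GSlinker (edgeR adjusted p = 0.000669). The direction of scny differed between forms, at -0.19 ± 0.06 in WT (edgeR adjusted p = 0.0165, lost without WT replicate 3) and 0.23 ± 0.06 in GSlinker (edgeR adjusted p = 0.00168). The single fat-body marker that could be tested, the lipoprotein gene apolpp, was higher in all 6 forms, by 0.80 to 1.63, at under 1 TPM in every group. Its calls in WT, RRM2 and Beta5 were lost without GFP replicate 2, that in Beta5 also without Beta5 replicate 2, and that in RRM2 also without GFP replicate 1 or 3 or RRM2 replicate 2 or 3.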
